A study of Mus musculus and Homo sapiens with 9 samples.

Results

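The genes described here are 46 genes of the mitotic machinery, which build the spindle, attach chromosomes to it at the kinetochore, and divide the cell at cytokinesis. They were taken by symbol from the RNA-seq count tables of 2 experiments on the loss of IRF2BP2, a transcriptional cofactor. All 46 had a row among the 64252 rows of the human table, and 45, with the symbols in mouse case, among the 43432 rows of the mouse table. The 1 without a mouse row of that symbol was KIF4A. The human experiment used J.gamma1 cells, a T cell acute lymphoblastic leukemia (T-ALL) line derived from Jurkat, with 2 libraries of cells carrying the shNC hairpin and 2 of cells carrying the shIRF2BP2 hairpin. The mouse experiment used CD3+ T cells magnetically sorted from the spleen, with 3 control libraries and 2 Irf2bp2 KO libraries. Control mice carry the label wild type, and in the study's methods they are Vav-iCre-/-;Irf2bp2fl/fl and the KO animals Vav-iCre+/-;Irf2bp2fl/fl, so that both mouse groups carry the floxed allele. Vav-iCre removes the gene throughout the blood lineage, not only in T cells. The age and sex of the mice are not given in the labels. The question addressed is whether the genes of cell division moved the same way when IRF2BP2 was lowered in leukemia cells and when it was deleted in normal T cells.

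Most of these genes are transcribed in waves, with their RNA low in resting and G1 cells and highest in G2 and M phase. Their levels in a bulk sample therefore follow the share of dividing cells, and most resting splenic T cells do not divide whereas a leukemia line in culture does. Cyclin B with its kinase CDK1 starts mitosis, the Aurora B complex and the spindle checkpoint watch over the attachment of chromosomes, the anaphase-promoting complex then releases the sister chromatids, and kinesins and actin-binding proteins shape the spindle and the cleavage furrow. In bulk samples, fewer cells of a type and less RNA per cell cannot be told apart.

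Many promoters of this gene class hold the cell cycle genes homology region (CHR), the word TTTGAA, to which the DREAM and MuvB complexes bind, and CCAAT boxes (ATTGG on the other strand), to which NF-Y binds. Promoters were searched from 250 bases before to 49 after the transcript start for TTTGAA and for CCAAT on both strands. TTTGAA was found in 36 of the 46 human promoters (78.3%), compared with 11.5% of the promoters of 20033 protein-coding genes. CCAAT was found in 82.6% of them, compared with 36.1%, and both words in 65.2%, compared with 4.91%. In the mouse, RefSeq promoters were listed for 37 of the genes, and of their 40 promoters 70.0% held TTTGAA and 75.0% held CCAAT, compared with 15.2% and 37.8% of 20148 promoters. A match is a description of letters in the window and was not tested as a site. The windows below run from 120 bases before to 19 after the start, 5′ to 3′, with TTTGAA and CCAAT or ATTGG in capitals. They show HMMR, the gene with the largest fall in J.gamma1 cells among those that passed the test, with 2 adjoining TTTGAA words in human. They also show CCNB2 with its CHR and CCAAT boxes, MKI67, where 1 TTTGAA overlaps an ATTGG in human, and CDC25B, which has no TTTGAA in human.
HMMR, human, hg38 chr5:163460512-163460651, plus strand: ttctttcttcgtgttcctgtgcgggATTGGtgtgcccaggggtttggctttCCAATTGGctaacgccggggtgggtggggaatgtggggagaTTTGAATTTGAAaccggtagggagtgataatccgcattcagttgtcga
Hmmr, mouse, GRCm38 chr11:40733418-40733557, minus strand: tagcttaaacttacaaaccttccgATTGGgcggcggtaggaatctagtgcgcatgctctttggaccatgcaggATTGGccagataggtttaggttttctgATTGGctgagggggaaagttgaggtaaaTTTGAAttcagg
CCNB2, human, hg38 chr15:59105026-59105165, plus strand: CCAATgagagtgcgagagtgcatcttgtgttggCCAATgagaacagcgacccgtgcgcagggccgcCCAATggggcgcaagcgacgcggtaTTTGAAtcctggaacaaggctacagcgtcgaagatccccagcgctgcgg
Ccnb2, mouse, GRCm38 chr9:70421535-70421674, minus strand: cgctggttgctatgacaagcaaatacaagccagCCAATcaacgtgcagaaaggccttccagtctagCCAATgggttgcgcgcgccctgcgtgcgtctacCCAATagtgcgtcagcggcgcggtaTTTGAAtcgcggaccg
MKI67, human, hg38 chr10:128126404-128126543, minus strand: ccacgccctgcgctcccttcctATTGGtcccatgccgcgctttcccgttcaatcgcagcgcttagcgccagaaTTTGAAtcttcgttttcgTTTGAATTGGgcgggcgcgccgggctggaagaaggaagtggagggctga
Mki67, mouse, GRCm38 chr7:135716360-135716499, minus strand: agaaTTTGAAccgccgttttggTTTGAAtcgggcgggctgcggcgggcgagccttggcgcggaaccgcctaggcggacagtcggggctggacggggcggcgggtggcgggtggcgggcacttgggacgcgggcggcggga
CDC25B, human, hg38 chr20:3796190-3796329, plus strand: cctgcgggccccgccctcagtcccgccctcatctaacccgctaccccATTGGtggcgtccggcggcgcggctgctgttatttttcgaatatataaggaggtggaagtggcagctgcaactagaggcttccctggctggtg

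Total counts per library lay between 26648204 and 31120236 in J.gamma1 cells and between 16668577 and 37177523 in the mouse, where control replicate 3 was the shallowest. IRF2BP2 checked the labels. It stood at 204.5 and 198.7 CPM (counts per 1000000 counts of the library) with shNC and at 79.0 and 93.8 CPM with shIRF2BP2 (log2 fold change -1.22, adjusted p = 0.00229), and mouse Irf2bp2 had 4145, 4594 and 1915 counts in the controls and 0 and 0 in the KO libraries. CPM values are scaled by TMM. Groups were compared by the quasi-likelihood test of edgeR, with p-values adjusted by the Benjamini-Hochberg method over the 15819 genes tested in J.gamma1 cells or the 15350 in the mouse, and log2 fold changes have their standard error (SE) beside them. To pass the test, a gene needed an adjusted p below 0.05 together with a log2 fold change whose size reached 0.5 in J.gamma1 cells or 1 in the mouse. The T cell identity genes were present in every library of both experiments. CD3E lay between 410 and 501 CPM in J.gamma1 cells. Cd3e was at 338, 446 and 390 CPM in the mouse controls and at 280 and 284 CPM in the KO libraries. Not all were steady. Of 16 T cell markers in J.gamma1 cells, 4 passed the test with a rise (25%, beside 5.46% of all genes). CD3D alone passed with a fall (-0.79, adjusted p = 0.00859, 6.25% beside 5.01%), and CD2 was between 1.44 and 5.8 CPM. Nothing in the labels says that the replicates came from separate cultures, so the p-values in J.gamma1 cells may measure technical spread.

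In the control libraries, the mitotic genes were far more abundant in the leukemia line than in splenic T cells. Per kilobase of transcript, the median over the genes was 52.1 CPM per kb in shNC cells and 3.97 CPM per kb in control mice, which are levels set across 2 tables that were scaled separately. In shNC cells the highest was STMN1, the microtubule-destabilizing protein stathmin, at 796 CPM per kb, followed by TOP2A at 172 and CDC20 at 149, and the lowest was SPC24 at 10.2. In control mice Stmn1 was also highest at 47.1 CPM per kb, followed by Bub3 at 43.2 and Pttg1 at 38.4, and Cenpf was lowest at 0.655. The replicates of the mouse controls spread more than those of any other group. The median coefficient of variation of the genes was 39.0% over the 3 mouse controls, 6.85% over the 2 KO libraries, 7.80% over the 2 shNC and 3.52% over the 2 shIRF2BP2 libraries. Of the 45 genes, 42 were lowest among the controls in control replicate 3 and 41 were highest in control replicate 2.

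In J.gamma1 cells, 3 of the 46 genes fell and none rose. HMMR, which encodes a spindle protein that also binds hyaluronan and whose human promoter holds 2 adjoining TTTGAA words, was at 125 and 142 CPM with shNC and at 60.6 and 73.8 CPM with shIRF2BP2, a log2 fold change of -0.99 (SE 0.140, adjusted p = 0.00561). MAD2L1, the spindle checkpoint protein MAD2, was at 188 and 197 CPM with shNC and 131 and 126 CPM with shIRF2BP2 (-0.58, SE 0.116, adjusted p = 0.0201). DLGAP5, which stabilizes spindle microtubules near chromosomes, was at 177 and 199 CPM with shNC and 118 and 136 CPM with shIRF2BP2 (-0.57, SE 0.132, adjusted p = 0.0335). In all 3 genes both shIRF2BP2 libraries lay below both shNC libraries. The genes lie at chr5:163460203-163491941 (HMMR), chr4:120055623-120066858 (MAD2L1) and chr14:55148112-55191608 (DLGAP5) in hg38. The 3 genes are 6.52% of the 46, beside 5.01% of all genes tested that fell, and none of the 46 rose beside 5.46% of all genes. NDC80 and CDC25B had adjusted p-values of 0.0444 and 0.0468 with log2 fold changes just under the size required (-0.45 and 0.50).

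The remaining changes in J.gamma1 cells were small and mostly downward. Of the 46 genes, 35 had a log2 fold change below 0 and 11 above, with a median of -0.18 beside 0.01 over all genes tested. The groups did not overlap, with shIRF2BP2 lower, for 28 genes (60.9%, beside 28.7% of all genes), and with shIRF2BP2 higher for 8 (17.4%, beside 29.6%). At an unadjusted p under 0.05, 18 genes were lower and 2 were higher. None changed by more than 2-fold. Without shNC replicate 1, 10 of the genes fell, without shNC replicate 2, 2 fell and 2 rose, and without either shIRF2BP2 library 1 fell.

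In the mouse, 16 of the 45 genes rose in Irf2bp2 KO T cells and none fell, at 35.6% beside 2.47% of all genes that rose and 0.111% that fell. MKI67 had the largest change. Mki67 was at 68.4, 78.1 and 45.9 CPM in the controls and at 409 and 475 CPM in the KO libraries, a 6.87-fold rise (log2 fold change 2.78, SE 0.232, adjusted p = 0.00717). The 16 genes were Mki67, Top2a, Plk1, Bub1b, Espl1, Cenpe, Cenpf, Kif11, Hmmr, Tpx2, Dlgap5, Prc1, Kif20a, Kif20b, Anln and Ect2. Across the 45, 43 log2 fold changes were above 0 and the median was 1.74, beside -0.02 over all genes tested, and 36 genes were more than 2-fold and 8 more than 4-fold higher. Both KO libraries lay above all 3 controls for 41 genes (91.1%, beside 18.2% of all genes), and both lay below them for none, beside 17.8% of all genes. Stmn1, Cdc25b, Bub3 and Pttg1 overlapped between the groups. Of the 29 genes that did not pass, 23 had an unadjusted p under 0.05.

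The count of 16 rests on few libraries. It was 32 without control replicate 2 and 22 without control replicate 3, but 0 without control replicate 1, 1 without KO replicate 1 and 0 without KO replicate 2. The median log2 fold change stayed between 1.43 and 2.15 in these fits. With DESeq2, 34 of the genes rose.

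**Figure D1:**
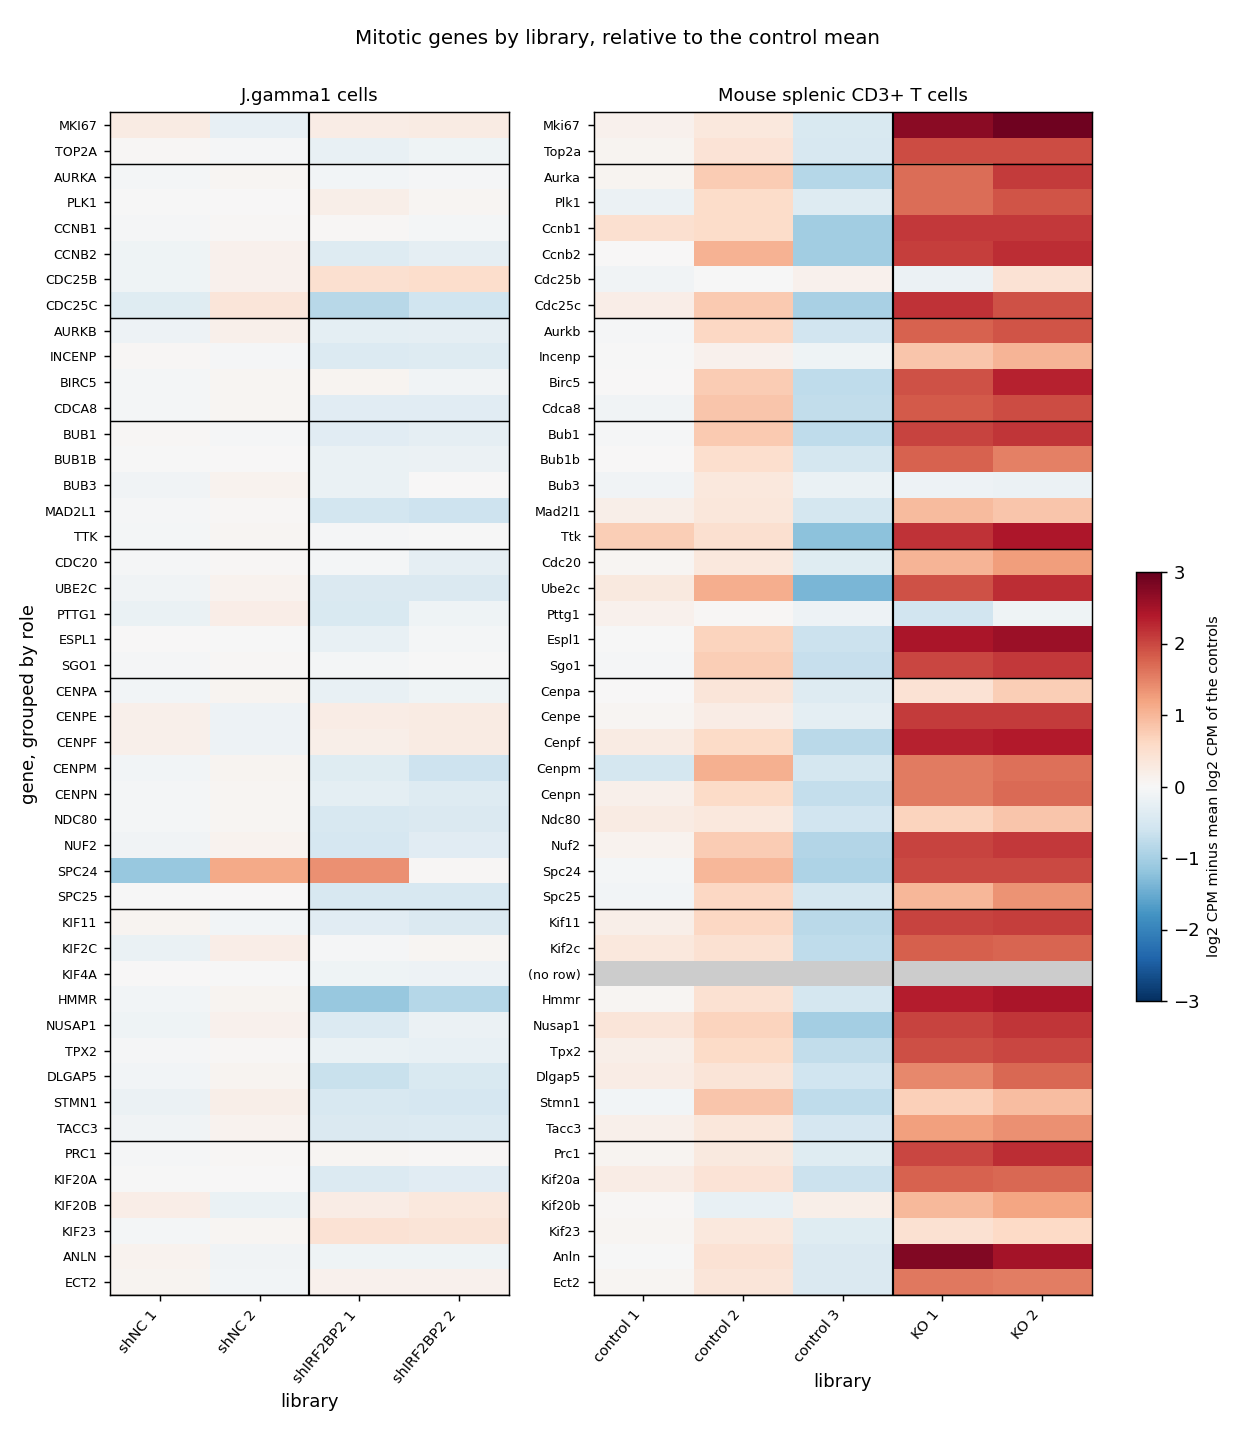
Heat map of the 46 genes (rows, grouped by role) in each library (columns), coloured by log2 CPM minus the mean log2 CPM of the control libraries of the same experiment, on a scale from -3 to 3. In J.gamma1 cells 35 of 46 log2 fold changes were below 0 and small, and in the mouse 43 of 45 were above 0, with Mki67 at 2.78, and the grey row marks the gene with no mouse row of that symbol.

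Most of the genes had opposite signs in the 2 experiments, but some J.gamma1 values were near 0. AURKA, CCNB1, BIRC5 and TTK (-0.06, -0.01, 0.00 and -0.02) turned above 0 with the trend on transcript length removed, as described below. MKI67 and CENPF turned below 0. Of the 45 genes in both tables, 32 had a log2 fold change below 0 in J.gamma1 cells and above 0 in the mouse, 11 were above 0 in both, 2 (BUB3 and PTTG1) were below 0 in both, and none had the reverse pattern. Only HMMR and DLGAP5 passed the test in both, lower in J.gamma1 cells and higher in the mouse. The difference itself was tested as an interaction over all 9 libraries and 12605 genes shared by symbol. The mouse change was above the J.gamma1 change at an adjusted p under 0.05 for 31 of the 45 genes (68.9%, beside 5.13% of all genes), and no gene had the opposite difference. The median difference was 1.94 on the log2 scale, beside -0.01 over all genes.

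HMMR had the largest difference, 3.31 (SE 0.335, adjusted p = 0.00158), followed by ANLN with 2.71 (SE 0.298, adjusted p = 0.00187). MKI67 and CDC25C both differed by 2.56, with adjusted p-values of 0.00321 and 0.0287. At the other end, the differences of KIF23 (0.10, SE 0.258), PTTG1 (-0.05, SE 0.269), BUB3 (-0.09, SE 0.246) and CDC25B (-0.34, SE 0.262) were within about their standard errors or little more, and all 4 had an adjusted p above 0.5. Across the 45 genes, the size of the change in 1 experiment did not order with that in the other (Pearson's r = -0.01, Spearman's rho = 0.18, over genes, which are not independent). Species, cell state, cell mixture, and partial knockdown against deletion differ together between the experiments and cannot be told apart. The summed erythroid markers were 5300 and 7260 CPM in the mouse KO libraries and 707 to 2390 CPM in the controls, compared with 639 to 833 CPM over all 4 J.gamma1 libraries. Leaving out 1 library at a time left between 7 and 39 differences, the lowest without shIRF2BP2 replicate 1, with 13, 10 and 9 without shNC replicate 1, shNC replicate 2 and shIRF2BP2 replicate 2, 13 without control replicate 1, and 10 and 9 without KO replicates 1 and 2.

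**Figure D2:**
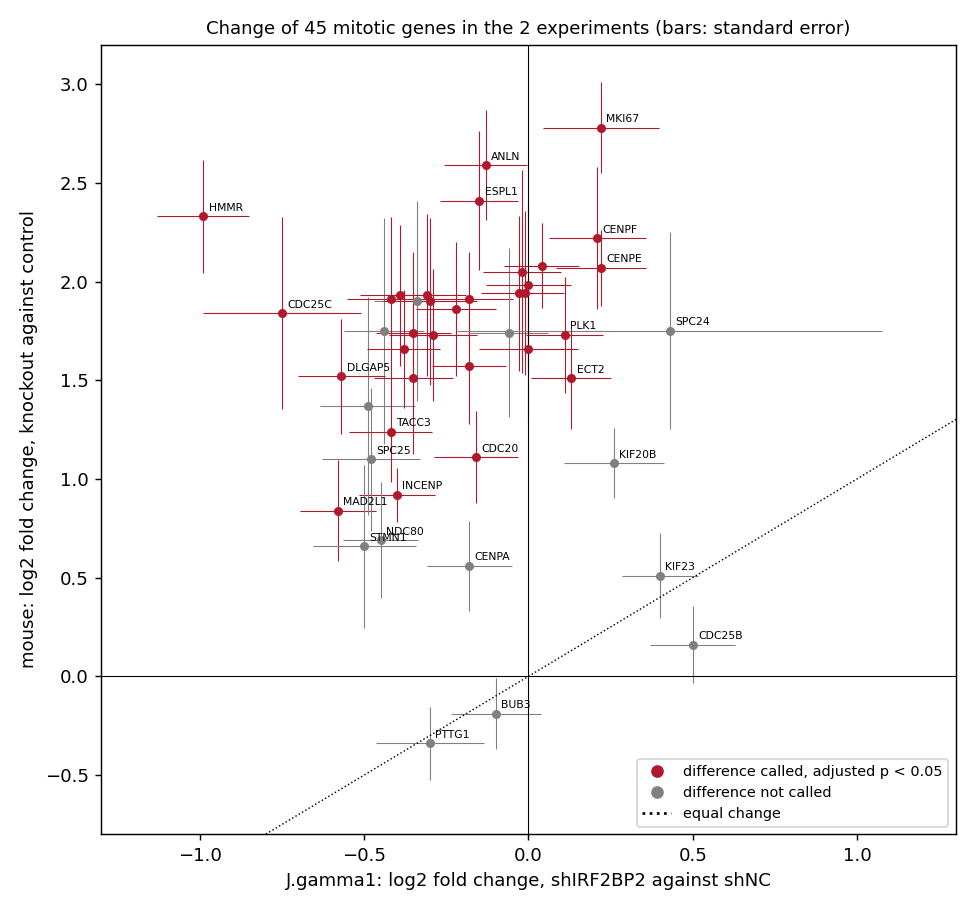
Log2 fold change of each of the 45 genes in J.gamma1 cells (horizontal axis, shIRF2BP2 against shNC) and in mouse T cells (vertical axis, KO against control), with standard errors as bars and names for the genes outside the central cloud. The 31 genes in red, whose difference between the experiments passed the test, all lie above the dotted line of equal change, and BUB3, PTTG1, KIF23 and CDC25B lie near it.

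The general proliferation genes are MKI67, which coats mitotic chromosomes and is the usual marker of cycling cells, and TOP2A, which untangles sister chromatids. MKI67 was at 871 and 620 CPM with shNC and 863 and 873 CPM with shIRF2BP2, a log2 fold change of 0.22 (adjusted p = 0.463). Both shIRF2BP2 libraries were close to shNC replicate 1 and above shNC replicate 2, and the value was -0.01 without the latter. TOP2A was at 1004 and 951 CPM with shNC and 836 and 895 CPM with shIRF2BP2 (-0.18, adjusted p = 0.434). In the mouse both rose. Top2a went from 58.2, 72.8 and 39.4 CPM to 213 and 213 CPM (1.91, SE 0.242, adjusted p = 0.0147). Mki67 lies at chr7:135689784-135716361 in GRCm38.

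The 6 genes of mitotic entry are the Aurora kinase AURKA, the Polo kinase PLK1, the cyclins CCNB1 and CCNB2, and the phosphatases CDC25B and CDC25C, which activate CDK1. In J.gamma1 cells none passed the test with the settings reported, and the median was -0.03. CDC25B was at 141 and 166 CPM with shNC and 212 and 221 CPM with shIRF2BP2 (0.50, SE 0.129, adjusted p = 0.0468), the highest log2 fold change of the 46 genes. CDC25C was at 22.1 and 36.7 CPM with shNC and 15.9 and 18.9 CPM with shIRF2BP2 (-0.75, SE 0.240, adjusted p = 0.0848), so the 2 phosphatases of the same kinase stood at opposite ends of the group. The value of CDC25C was -0.34 without shNC replicate 2 and -1.08 without shNC replicate 1, where it passed the test, as it did with DESeq2 (adjusted p = 0.0258). Reads of CDC25C cannot be separated from FAM53C, which overlaps it on the other strand, if the counting did not use strand.

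In the mouse, PLK1 alone of the entry genes passed the test. Plk1 went from 8.18, 13.6 and 7.13 CPM to 29.7 and 34.5 CPM (1.73, SE 0.293, adjusted p = 0.0346). Ccnb1 had the largest value of the group, at 13.7, 14.3 and 4.76 CPM in the controls and 42.5 and 42.3 CPM in the KO libraries (1.94, SE 0.416, adjusted p = 0.0686), and all KO values were above all controls. Aurka, Ccnb2 and Cdc25c had log2 fold changes of 1.74, 1.90 and 1.84 with adjusted p-values between 0.0986 and 0.126. Cdc25b was the exception, at 65.5, 70.3 and 77.8 CPM in the controls and 63.0 and 95.8 CPM in the KO libraries (0.16), where the groups overlapped.

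The 4 genes of the chromosomal passenger complex, which corrects faulty attachments and directs cytokinesis, are the kinase AURKB and its partners INCENP, BIRC5 (survivin) and CDCA8 (borealin). In J.gamma1 cells they had log2 fold changes of -0.29, -0.40, 0.00 and -0.35, and none passed the test. INCENP was at 205 and 197 CPM with shNC and 151 and 153 CPM with shIRF2BP2 (adjusted p = 0.0633). BIRC5 was at 187 and 204 CPM with shNC and 208 and 182 CPM with shIRF2BP2, where the groups overlapped. In the mouse the 4 had log2 fold changes from 0.92 to 1.98 and none passed both thresholds. Birc5 was at 8.34, 14.0 and 4.88 CPM in the controls and 31.2 and 41.2 CPM in the KO libraries (1.98, SE 0.402, adjusted p = 0.0583). Incenp was at 36.9, 40.8 and 34.3 CPM against 66.1 and 75.6 CPM (0.92, SE 0.137), with an adjusted p of 0.0224 but a fold under the size required.

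The 5 spindle checkpoint genes delay anaphase until every kinetochore is attached, and comprise the kinases BUB1 and TTK (MPS1), the inhibitors BUB1B (BUBR1) and MAD2L1, and the adaptor BUB3. In J.gamma1 cells all 5 had log2 fold changes below 0, with a median of -0.18, but only MAD2L1 passed the test. TTK, at 196 and 211 CPM with shNC and 199 and 202 CPM with shIRF2BP2, had a value of -0.02. In the mouse Bub1b rose, from 12.5, 17.5 and 8.57 CPM to 42.0 and 34.9 CPM (1.57, SE 0.291, adjusted p = 0.0449). Ttk had the largest value of the group, at 3.19, 2.68 and 0.813 CPM in the controls and 8.62 and 10.3 CPM in the KO libraries (2.05, SE 0.513, adjusted p = 0.104). Bub1 stood at 1.93 (adjusted p = 0.0676) and Mad2l1 at 0.84 (adjusted p = 0.176). Bub3 was at 88.0, 118 and 81.9 CPM in the controls and 84.8 and 83.5 CPM in the KO libraries (-0.19), and it was the most abundant of the 5 per kilobase in control mice.

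The 5 genes of the metaphase-to-anaphase step are CDC20, which activates the anaphase-promoting complex, its ubiquitin-conjugating enzyme UBE2C, securin (PTTG1), separase (ESPL1), which cleaves cohesin, and shugoshin (SGO1), which protects it. In J.gamma1 cells their log2 fold changes ran from -0.44 (UBE2C, adjusted p = 0.0554) to -0.03 (SGO1), and none passed the test. In the mouse separase rose. Espl1 went from 5.78, 9.29 and 3.75 CPM to 32.3 and 35.01 CPM (2.41, SE 0.351, adjusted p = 0.0211). Its inhibitor securin had the opposite sign, since Pttg1 was at 39.6, 37.01 and 32.5 CPM in the controls and 24.4 and 33.1 CPM in the KO libraries (-0.34, SE 0.183, adjusted p = 0.436), with overlap. Sgo1, Ube2c and Cdc20 had log2 fold changes of 1.94, 1.75 and 1.11 with adjusted p-values of 0.0587, 0.206 and 0.0647. Cdc20 overlaps the more abundant Elovl1 on the other strand, so its counts are uncertain if strand was not used, and the same holds for mouse Cdca8 and Tacc3, which also overlap a gene on the other strand.

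The 9 centromere and kinetochore genes comprise the centromeric histone CENPA, the kinetochore proteins CENPM and CENPN that stand next to it, the corona proteins CENPE (a kinesin) and CENPF, and the 4 subunits of the NDC80 complex (NDC80, NUF2, SPC24 and SPC25), which grips the microtubule. In J.gamma1 cells none passed both thresholds, and the subunits of the NDC80 complex were not alike. NDC80, NUF2 and SPC25 had log2 fold changes of -0.45, -0.42 and -0.48, with both shIRF2BP2 libraries below both shNC libraries. NDC80 was at 94.4 and 103 CPM with shNC and 71.0 and 73.3 CPM with shIRF2BP2. SPC24 varied between replicates of 1 group more than between groups, at 7.88 and 38.7 CPM with shNC and 45.2 and 17.9 CPM with shIRF2BP2 (0.43, SE 0.647). Its counts are uncertain, since the counting may not have used strand. CENPE and CENPF stood at 0.22 and 0.21, and CENPA, CENPN and CENPM at -0.18, -0.35 and -0.49. The counts of CENPA are uncertain, since it overlaps SLC35F6 on the same strand, a gene with 73.8% as many counts. CENPN overlaps CMC2 (66.6% as many) on the other strand, so its counts are uncertain if strand was not used.

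In the mouse both corona proteins rose. Cenpf went from 7.96, 10.01 and 3.88 CPM to 33.7 and 35.1 CPM (2.22, SE 0.358, adjusted p = 0.0291) and Cenpe from 9.45, 10.7 and 7.45 CPM to 38.9 and 38.6 CPM (2.07, SE 0.193, adjusted p = 0.0084). Both KO libraries lay above all controls for all 9 genes (100%, beside 18.2% of all genes). The other 7 had log2 fold changes from 0.56 (Cenpa) to 1.91 (Nuf2), and none passed the test. Within the NDC80 complex, Nuf2 and Spc24 stood at 1.91 and 1.75 and Spc25 and Ndc80 at 1.10 and 0.69, with standard errors between 0.295 and 0.499.

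The 9 spindle and microtubule genes are the kinesins KIF11, which pushes the poles apart, KIF2C, which depolymerizes microtubules, and KIF4A, and the microtubule-binding proteins HMMR, NUSAP1, TPX2, DLGAP5, STMN1 and TACC3. They had the lowest median of the 8 role groups in J.gamma1 cells, -0.39, and held 2 of the 3 genes that fell. Both shIRF2BP2 libraries were below both shNC libraries for 8 of the 9 (88.9%, beside 28.7% of all genes), KIF2C being the exception (0.00). STMN1 was at 1008 and 1289 CPM with shNC and 813 and 807 CPM with shIRF2BP2 (-0.50, SE 0.157, adjusted p = 0.0805). KIF11, TACC3, NUSAP1, TPX2 and KIF4A had values of -0.39, -0.42, -0.30, -0.22 and -0.13. NUSAP1 shares its locus with the abundant noncoding gene OIP5-AS1.

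In the mouse 4 of the 8 listed spindle genes rose (50%, beside 2.47% of all genes tested). Hmmr, at chr11:40701395-40733422 in GRCm38, went from 6.51, 8.60 and 4.32 CPM to 31.9 and 33.8 CPM, a 5.02-fold rise (2.33, SE 0.285, adjusted p = 0.0131). Dlgap5 went from 13.2, 14.8 and 7.51 CPM to 30.9 and 37.2 CPM (1.52, SE 0.290, adjusted p = 0.0493). Kif11 and Tpx2 stood at 1.93 and 1.86 with adjusted p-values of 0.0444 and 0.043. Of the other listed genes, Nusap1, Kif2c, Tacc3 and Stmn1 had log2 fold changes of 1.90, 1.66, 1.24 and 0.66, of which Stmn1 overlapped between the groups. The mouse table lists the kinesin Kif4, a name outside the rule, which stood at 1.74 (adjusted p = 0.0408), looked up after its absence was seen.

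The 6 genes of cytokinesis are PRC1, which bundles the central spindle, the kinesins KIF20A, KIF20B and KIF23, the scaffold ANLN (anillin) and ECT2, which activates RhoA at the cleavage furrow. They were the group with the most genes above 0 in J.gamma1 cells (4 of 6, or 3 with upper-quartile scaling, where PRC1 stood at -0.01, median 0.09), and none passed the test. KIF23 was at 98.6 and 106 CPM with shNC and 138 and 133 CPM with shIRF2BP2 (0.40, SE 0.115, adjusted p = 0.0619). KIF20B, ECT2 and PRC1 stood at 0.26, 0.13 and 0.04, and ANLN and KIF20A at -0.13 and -0.38. KIF20A overlaps CDC23 on the other strand.

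Cytokinesis was also the group in which most genes passed the test in the mouse, 5 of 6. That is 83.3%, beside 2.47% of all genes tested that rose. Anln, at chr9:22332012-22389188 in GRCm38, went from 4.48, 6.06 and 3.32 CPM to 30.9 and 25.4 CPM, a 6.04-fold rise (2.59, SE 0.279, adjusted p = 0.01). Prc1 went from 12.6, 14.7 and 9.32 CPM to 47.8 and 56.2 CPM (2.08, SE 0.215, adjusted p = 0.01). Kif20a, Ect2 and Kif20b rose by 1.66, 1.51 and 1.08 on the log2 scale, with adjusted p-values of 0.0413, 0.0344 and 0.0308, and Kif20a overlaps Cdc23 on the other strand. Prc1 overlaps another gene there too, so the counts of both are uncertain if strand was not used. The 6th gene, Kif23, stood at 0.51 (adjusted p = 0.317), close to its value of 0.40 in J.gamma1 cells.

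**Figure D3:**
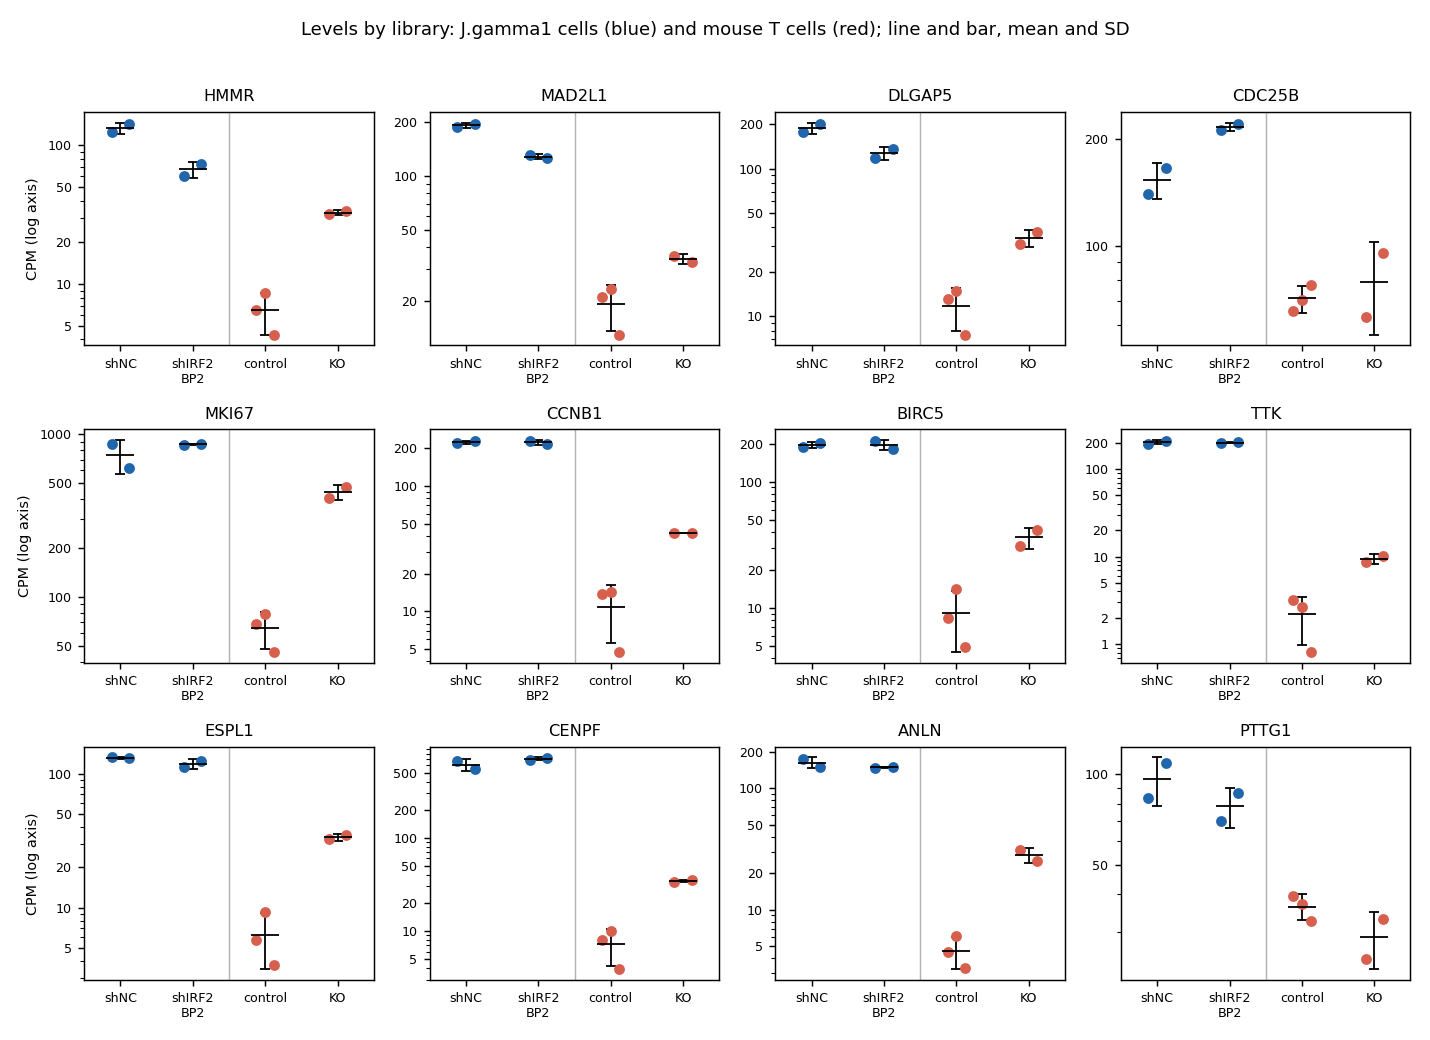
CPM of 12 of the genes in every library (points, log axis that differs between panels), with the mean as a line and the SD as a bar, for J.gamma1 cells in blue and mouse T cells in red. HMMR and DLGAP5 fell with shIRF2BP2 and rose in KO T cells, MAD2L1 fell with shIRF2BP2 and did not pass the test in the mouse (0.84), MKI67 was 6.87-fold higher in KO T cells with its J.gamma1 groups overlapping, and PTTG1 and CDC25B overlapped in the mouse.

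A list of 100 other mitotic genes, which does not share a gene with the 46, had medians nearer to 0. In J.gamma1 cells 99 were tested, and the median log2 fold change was -0.06. Of these, 4 fell (4.04%, beside 5.01% of all genes tested) and 2 rose (2.02%, beside 5.46%). Both shares were below those of all genes. CDK1, the kinase that cyclin B activates, fell the most, from 321 and 351 CPM to 165 and 166 CPM (-1.02, SE 0.121, adjusted p = 0.00301). The kinetochore genes CENPK and ZWINT fell by 0.70 and 0.57 on the log2 scale, and the spindle genes FAM83D and CKAP5 rose by 0.73 and 0.53. In the mouse 97 were tested, with a median of 0.46. Of these, 16 rose (16.5%, beside 2.47% of all genes tested) and none fell (beside 0.111%). The largest rises were those of Kntc1 (2.62), Aspm (2.33) and Ckap2l (2.27). Of 50 genes of DNA replication, 8 fell in J.gamma1 cells (16%, beside 5.01% of all genes tested). Their median there was -0.34, below the -0.18 of the 46 mitotic genes. In the mouse 14 of the 50 rose (28%, beside 2.47% of all genes tested), with a median of 0.64.

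Markers of other blood cells differed between the mouse groups, and the sorted cells were not free of them. The summed level of 19 erythroid markers was 2390, 1420 and 707 CPM in the controls and 5300 and 7260 CPM in the KO libraries. Of the 19, 12 rose (63.2%, beside 2.47% of all genes tested). Both KO libraries lay above all 3 controls for all 19 (100%, beside 18.2% of all genes). None of the 19 was at 0 in all libraries. The 13 plasma cell markers summed to 8370, 4300 and 4440 CPM in the controls and 13600 and 9060 CPM in the KO libraries. Among these markers 2 rose (15.4%, beside 2.47% of all genes tested). The 16 T cell markers summed to 7630, 8760 and 7830 CPM in the controls and 6010 and 6280 CPM in the KO libraries, with none passing the test. Both KO libraries lay below all 3 controls for 14 of the 16 (87.5%, beside 17.8% of all genes).

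The summed level of the 45 mitotic genes was 778, 995 and 580 CPM in the controls and 2020 and 2230 CPM in the KO libraries. It thus moved with the erythroid sum between the groups, whereas among the controls the mitotic sum was highest in control replicate 2 and the erythroid sum in control replicate 1. B cell markers summed to between 39.5 and 283 CPM and myeloid markers to between 65.1 and 496 CPM, both highest in control replicate 2 and lowest in control replicate 3. The part of these cells in the mitotic rise was not tested. In J.gamma1 cells the 16 erythroid markers with a row summed to 833 and 711 CPM with shNC and 736 and 639 CPM with shIRF2BP2, and 3 of them were at 0 in all 4 libraries.

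**Figure D4:**
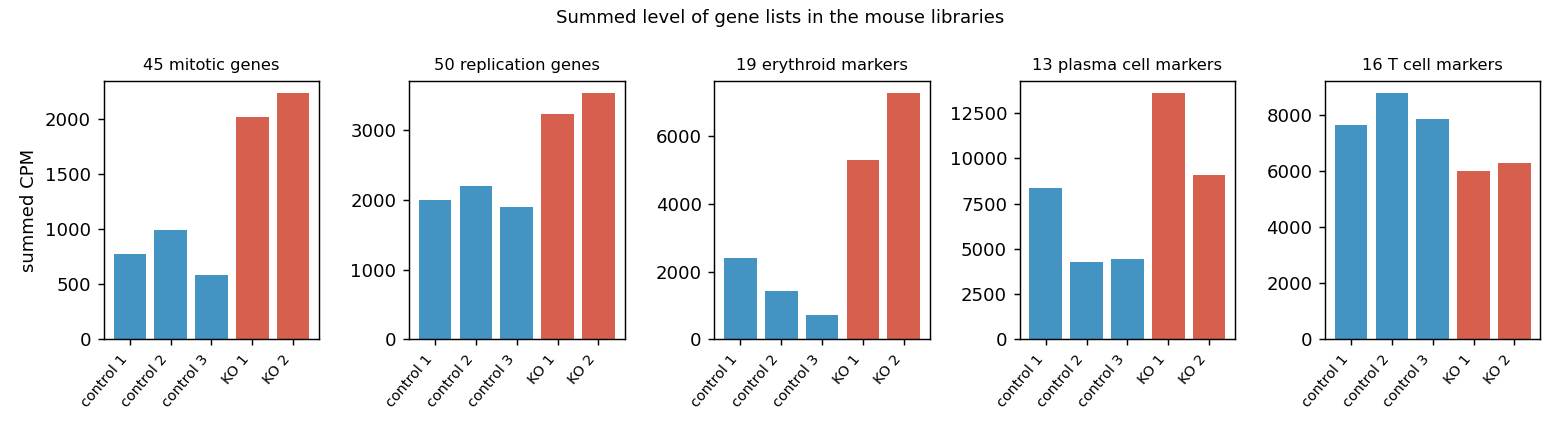
Summed CPM of 5 gene lists (panels) in the 5 mouse libraries, controls in blue and KO in red, on axes that start at 0. The mitotic genes and the erythroid markers were higher in both KO libraries than in all controls, at 2020 and 2230 CPM and 5300 and 7260 CPM, and the T cell markers lower, at 6010 and 6280 CPM.

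Libraries also differed by transcript length. The Spearman correlation between a gene's deviation from its mean log2 level over the libraries and its transcript length, over 10288 coding genes in J.gamma1 cells, was 0.02 and -0.50 in shNC replicates 1 and 2 and 0.28 and 0.32 in the shIRF2BP2 libraries. Over 9571 coding genes in the mouse it was -0.24, -0.58 and 0.40 in the controls and 0.36 and 0.29 in the KO libraries. Accordingly, the log2 fold changes of the mitotic genes correlated with transcript length in both experiments (Spearman's rho 0.38 and 0.38, over genes, beside 0.34 and 0.38 over all these coding genes). Over all these coding genes in J.gamma1 cells, the median log2 fold changes were -0.14 (up to 2516 bases), 0.01 (middle length) and 0.17 (over 4587 bases). Among the mitotic genes, the median was -0.32 over the 18 with the shortest transcripts (up to 2516 bases). It was -0.16 over the 18 of middle length and -0.11 over the 10 longest (over 4587 bases). Of these 10, KIF20B, CENPE, CENPF and MKI67 stood above 0 and BUB3, ESPL1, TOP2A, MAD2L1, KIF11 and ANLN below. With a trend on length removed from each library, an alternative chosen after the data were seen, MKI67 went to -0.09 and CENPF to -0.05, HMMR, MAD2L1 and DLGAP5 stood at -0.97, -0.67 and -0.53 and still passed the test, and CDC25B passed it as well (0.52, adjusted p = 0.0197). In the mouse 14 genes then rose, with a median of 1.72.

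**Figure D5:**
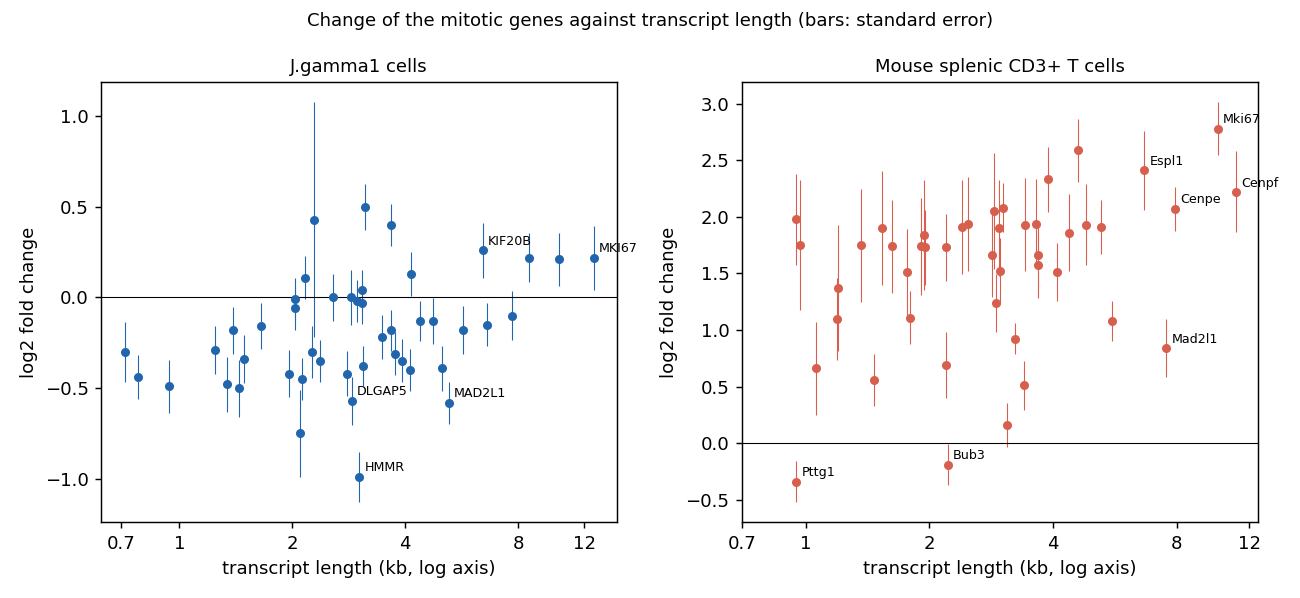
Log2 fold change of each mitotic gene against the length of its transcript (kb, log axis) in J.gamma1 cells (left) and in the mouse (right), with standard errors as bars. Longer transcripts had higher values in both, with MKI67 at 0.22 and Mki67 at 2.78, and HMMR stands below genes of similar length in J.gamma1 cells.

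The CHR word, printed in capitals in the promoter windows, was set beside the changes. In J.gamma1 cells the 36 genes with TTTGAA had a median log2 fold change of -0.20, with all 3 of the genes that fell among them, and the 10 without it had a median of -0.02. In the mouse, of the 37 genes with a listed promoter, the 25 with TTTGAA had a median of 1.74 and the 12 without it a median of 1.90, although 12 of the former and 1 of the latter passed the test. These are descriptions with no test.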

How the data were processed

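RNA-seq libraries of J.gamma1 cells (2 shNC, 2 shIRF2BP2) and mouse splenic CD3+ T cells (3 control, 2 KO) were grouped by their labels. The files deposited by the authors hold raw counts, 1 column for each library and 1 row for each Ensembl gene, not normalized or pooled. Per the submitters' processing notes, the tools were HISAT2 2.2.0 and StringTie, with hg38 for human and mm10 for mouse. How StringTie's output became counts, and whether strand was used, is not given in the sources used here. Depth (16668577 to 37177523 counts) means that a count of 0 allows up to 0.0783 to 0.188 CPM, for counting error only.

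Rows were restricted to annotated genes (GENCODE 44 and M21), which held 98.0% and 99.8% of the counts. In R 4.3.3, edgeR 4.0.16 was used for the filter (filterByExpr), the TMM scaling and the quasi-likelihood test, with condition as the only term. The difference between the experiments was the interaction in a joint fit of 4 groups with each table scaled on its own. No 2 libraries of a group agreed within sampling noise (lowest chi-square per gene 19.5), so none was treated as a repeat deposit, which does not show that they came from separate cultures. Transcript lengths were those of the canonical (human) or longest principal (mouse) transcript. Human promoters were read from hg38 at GENCODE canonical starts and mouse promoters from RefSeq (GRCm38.p6) with Python 3.11.15. Scripts were tested on simulated counts.

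The genes and lists were chosen with earlier results of these data known. All 46 genes are named, and some items outside them are not reported here. Values per library are given for the genes that fell in J.gamma1 cells, for MKI67 and for the largest mouse change of each role, and for others that illustrate a role, chosen after their values were seen. Alternatives were RLE and upper-quartile scaling, DESeq2 1.42.0, other filters, all rows, rows summed by symbol, counts divided by 2, other fold thresholds, a replicate block and each library left out. Removal of a trend on transcript length was added after the data were seen.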

Additional observations from a re-analysis of the deposited data

Results flagged for a closer look

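The change differed between the experiments, by edgeR's interaction test with Benjamini-Hochberg adjustment, for 31 of the 45 mitotic genes tested, all with the mouse change (KO minus control) above the J.gamma1 change (shIRF2BP2 minus shNC). Each value here is that difference on the log2 scale. Among the proliferation genes it was 2.56 for MKI67 and 2.08 for TOP2A. For mitotic entry it was 1.60 for PLK1, 1.94 for CCNB1 and 2.56 for CDC25C. In the chromosomal passenger complex all 4 genes differed, with 2.0 for AURKB, 1.32 for INCENP, 1.97 for BIRC5 and 2.07 for CDCA8. For the spindle checkpoint it was 2.21 for BUB1, 1.74 for BUB1B, 1.41 for MAD2L1 and 2.0 for TTK. At the anaphase step it was 1.27 for CDC20, 2.53 for ESPL1 and 1.95 for SGO1. Among kinetochore genes it was 1.84 for CENPE, 2.0 for CENPF, 1.83 for CENPN and 2.30 for NUF2. Among spindle genes it was 2.31 for KIF11, 1.62 for KIF2C, 3.31 for HMMR, 2.18 for NUSAP1, 2.07 for TPX2, 2.07 for DLGAP5 and 1.66 for TACC3. For cytokinesis it was 2.03 for PRC1, 2.03 for KIF20A, 2.71 for ANLN and 1.37 for ECT2. Groups of 2 or 3 libraries are too small for a test of outlying samples.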

How the results depend on the processing

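In J.gamma1 cells, 3 mitotic genes fell with the settings reported, compared with 5 with upper-quartile scaling or DESeq2, 0 at a log2 fold threshold of 1, and 1 to 10 with a library left out. With the replicate block 4 fell, CDC25C (adjusted p = 0.00791) being the addition. The number that rose was 1 with the replicate block, with the length trend removed or with no fold threshold (CDC25B), and 0 to 2 with a library left out. Their median log2 fold change was -0.26 to -0.16 with a library left out. Of the other mitotic genes, 2 fell when genes with 1 count or more in any library were tested and 1 at a fold threshold of 1, and 1 to 10 with a library left out. Those that rose numbered 1 with upper-quartile scaling, with that gene filter or with the length trend removed, 0 at a fold threshold of 1, and 1 to 5 with a library left out. In the mouse, 34 mitotic genes rose with DESeq2, 28 with the replicate block and 0 to 32 with a library left out, and of the other mitotic genes 38 with DESeq2 and 0 to 30 with a library left out. The median of the mitotic genes in the mouse was 1.43 to 2.15 and the number of differences between the experiments 7 to 39 with a library left out. Where 1 library was left in a group, it was assumed to vary like the others. The cause was not tested.

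Signs turned for genes near 0. In J.gamma1 cells KIF2C stood at 0.00 with RLE scaling or DESeq2, -0.06 with upper-quartile scaling, -0.03 with that gene filter, -0.01 with 10 counts in every library or counts divided by 2, and -0.18 to 0.20 with a library left out, and PRC1 at -0.01 with upper-quartile scaling. With the length trend removed, MKI67 stood at -0.09, CENPF at -0.05, AURKA at 0.04, CCNB1 at 0.09, BIRC5 at 0.05 and TTK at 0.01. With a library left out, ranges were -0.41 to 2.0 for SPC24, -0.01 to 0.48 for MKI67, -0.13 to 0.01 for AURKA, -0.08 to 0.03 for CCNB1, -0.13 to 0.09 for BIRC5, -0.08 to 0.03 for TTK, -0.08 to 0.01 for SGO1, and in the mouse -0.30 to 0.00 for Bub3 and -0.20 to 0.41 for Cdc25b. The labels do not say that equal replicate numbers share a litter, batch or day. Deviations of same-numbered libraries from their group means correlated at 0.37 in J.gamma1 cells. Both J.gamma1 pairs give this 1 value, because 2 libraries deviate from their mean by equal and opposite amounts. For the mouse the values were 0.25 and -0.09 for replicates 1 and 2. Whether equal numbers mark pairs was not tested, and the replicate block is an alternative. In the mouse, the low genes Ttk, Cdc25c and Cenpm, under 4 CPM in each control, had standard errors of 0.513, 0.485 and 0.554.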
